A study of Mus musculus with 18 samples.

Results

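The replication-dependent and linker histone genes are the clustered genes that supply most of the histone protein made when DNA is copied. They were taken as every protein-coding gene whose GENCODE M21 symbol begins with Hist1h, Hist2h, Hist3h or Hist4h, and 67 of the 56748 gene IDs in the count files met that rule. Of these, 6 encode linker histone H1 and 61 encode core histones, made up of 18 H2A, 18 H2B, 12 H3 and 13 H4 genes. A further 3 histone pseudogenes were left out. They were measured by bulk RNA-seq of CD8 cells, the cytotoxic T cells, isolated by sorting from spleens of mice of genotype WT, with 6 libraries for each of 3 diets. HFD mice ate high fat diet for 12 weeks. SW (switched diet) mice ate high fat diet for 6 weeks, followed by 6 weeks of normal diet. ND mice ate normal diet for the whole 12 weeks. The labels give no strain, age or sex, and they do not say whether each library came from its own mouse, so p-values measure the spread between these samples, which may be technical.

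Core histones form the octamer round which DNA is wrapped, and linker histone H1 sits where the DNA enters and leaves it. The clustered copies are transcribed mainly in S phase, and most of their messenger RNAs end in a stem-loop in place of a poly-A tail. The stem-loop binding protein, encoded by Slbp, holds that structure during processing, export and translation. Some clustered genes also make a longer, polyadenylated transcript, chiefly in cells that have left the cell cycle. Messenger RNA was here selected on poly-T beads, so a level below is that of the RNA the beads kept, and a change in the amount of RNA cannot be told apart from a change in the tailed share of it. In a bulk sample, fewer cells that express a gene and less RNA per cell cannot be told apart either.

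The stem-loop was found in the annotated transcripts of 46 of the 67 genes by the canonical histone stem-loop pattern, which is 16 bases long, opens with GG, closes with CC and was read on the transcript's own strand. The 21 genes with no match had a median longest annotated transcript of 405 bases, against 619 bases for the 46 with a match. Where the annotation stops short of the 3' end, a missing match does not show that the element is missing. The same pattern occurred in 0.621% of 21901 protein-coding genes of GENCODE M21. The elements of 6 genes are shown, those of the tested genes that reached an unadjusted p under 0.05 in any comparison of diets. The stem-loop is in capitals, the 5 bases on either side are in lower case, and the coordinates are GRCm38.
Hist1h1c, chr13:23739507-23739532, plus strand: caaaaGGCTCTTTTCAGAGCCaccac
Hist1h1e, chr13:23621777-23621802, minus strand: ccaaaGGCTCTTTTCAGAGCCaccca
Hist1h4n, chr13:21831793-21831818, minus strand: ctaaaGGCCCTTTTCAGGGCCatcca
Hist1h4c, chr13:23698084-23698109, minus strand: caaaaGGCCCTTTTCAGGGCCaccca
Hist1h4d, chr13:23581945-23581970, plus strand: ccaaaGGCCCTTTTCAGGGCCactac
Hist1h4i, chr13:22040961-22040986, minus strand: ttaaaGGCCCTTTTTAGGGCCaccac
The linker genes Hist1h1c and Hist1h1e carried the form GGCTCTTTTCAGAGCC, which also occurred in 10 H2A, 8 H2B and 5 H3 genes. Of the H4 genes, 7 carried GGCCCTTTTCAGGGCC, among them Hist1h4n, Hist1h4c and Hist1h4d.

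The promoters of the linker genes shared elements that the choice of genes did not use. RefSeq promoters (GRCm38.p6, 250 bases before to 50 after the start) matched 62 of the 67 genes. The H1 box AAACACA, an element known from linker histone promoters, was found in 5 of 6 linker promoters (83.3%), against 7.18% of all 32851 promoters of the same length. CCAAT was found in all 6 linker, 18 H2A, 17 H2B and 10 H3 promoters, in 3 of 12 H4 promoters and in 37.4% of all promoters. All motifs were searched on both strands. An H2A and an H2B gene that point away from each other can share most of a promoter, as Hist1h2ae and Hist1h2bg do. A single site can then count in both classes, so the H2A and H2B shares here are not independent. The TATA box, TATAAA, was present in 55.6% of the histone promoters and 13.6% of all promoters. The 8-base octamer ATTTGCAT, known from H2B promoters, was in 38.9% of H2A, 41.2% of H2B and 1.74% of all promoters, and in none of the linker, H3 or H4 promoters searched. The 130 bases before the start of the linker genes that changed with diet are shown, with the H1 box and the CCAAT and TATA boxes in capitals.
Hist1h1c, chr13:23738677-23738806, plus strand: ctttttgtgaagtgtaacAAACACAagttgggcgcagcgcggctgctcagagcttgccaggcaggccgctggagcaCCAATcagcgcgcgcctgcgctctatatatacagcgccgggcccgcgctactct
Hist1h1e, chr13:23622559-23622688, minus strand: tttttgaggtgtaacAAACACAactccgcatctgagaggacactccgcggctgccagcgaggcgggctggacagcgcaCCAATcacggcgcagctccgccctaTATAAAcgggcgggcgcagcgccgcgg
The H1 box began 112 bases before the start in Hist1h1c and 115 bases before it in Hist1h1e. CCAAT began 54 bases before the start in Hist1h1c and 52 bases before it in Hist1h1e. A match is a run of letters and no measure of binding.

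Of the 67 genes, 54 had a count in at least 1 library and 13 were at 0 in all 18. Total counts per library were 11947339 to 16398340, and the histone genes together held 12526 counts, or 0.00494% of the sum. Linker genes held 30.5% of the histone counts, with 5 of 6 detected, and H2B genes held 43.8%, with 16 of 18 detected. H4 genes held 13.5% of the histone counts, H2A genes 8.73% and H3 genes 3.49%. The 13 genes at 0 were the testis linker gene Hist1h1t, 6 H2A genes, 2 H2B genes, 3 H3 genes and 1 H4 gene. A count of 0 says only that no read was assigned, since several of these genes have near-identical copies.

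Detection moved with the annotated shape of the transcript. The filter on low counts was passed by 12 genes, which held 11232 of the 12526 counts. Of 23 genes with over 100 annotated bases after the stem-loop, 9 passed, against 1 of 23 with at most 100 such bases, and that was Hist1h4n, with 31 bases. Hist2h2be and Hist1h2bc also passed and had no match to the stem-loop pattern. A poly-A signal (AATAAA) was found within the last 40 annotated bases of 14 genes, of which 5 passed. It was not found in 53, of which 7 passed. Those 53 had a median longest annotated transcript of 488 bases, against 1255 bases in the 14. An annotation that stops short of the 3' end would also miss the signal. For comparison, 64.1% of all protein-coding genes had that signal. Sequence shared between copies moved with detection as well. The median share of 50-base stretches found in no other gene was 79.2% in the 12 genes that passed and 45.4% in the 55 that did not. The part of length, tail and shared sequence in detection was not tested.

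**Figure D1:**
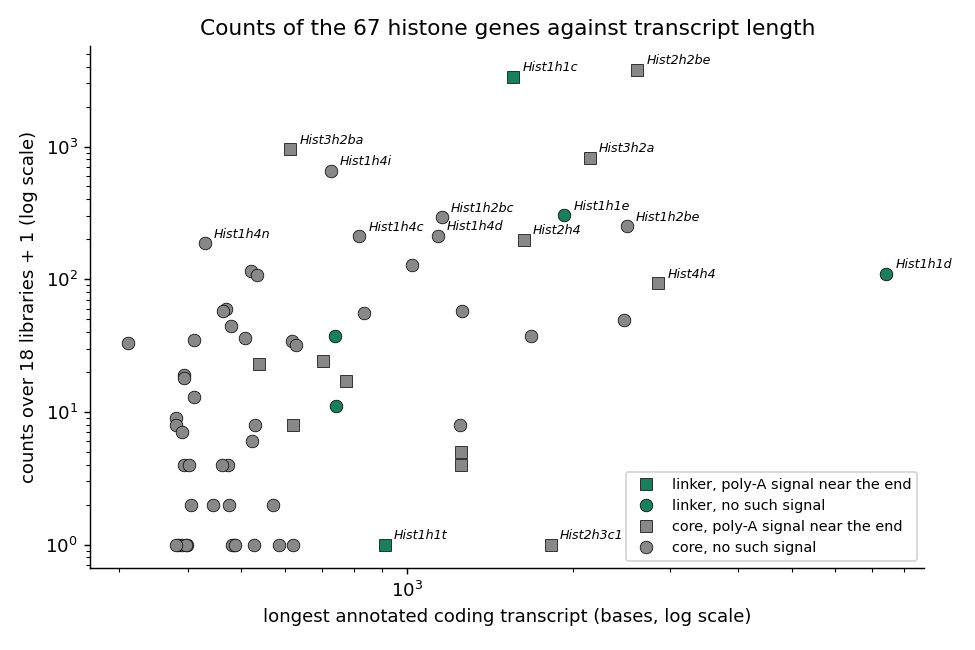
Total counts over the 18 libraries plus 1 (y axis, log scale) against the length of the longest annotated coding transcript in bases (x axis, log scale) for the 67 histone genes, 1 point a gene; squares have the poly-A signal near the transcript's end and circles do not, and linker genes are green. Hist2h2be (3795 counts) and Hist1h1c (3360 counts) lie at the top, and 13 genes lie on the bottom line at a count of 0.

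Some libraries stood apart over all genes. HFD 4 had 17570 genes above 0, against 18963 to 20155 in the other 17 libraries. It lay at 55.0 on the first principal component (13.4% of the variance), with the others between -8.83 and 6.31. On the second component (12% of the variance) replicates 1 and 2 lay at 5.58 to 31.1 in all 3 diets, and replicates 3 to 6 at 4.59 or lower. What a replicate number stands for is not in the labels. Values without HFD 4 and within those sets of replicates are given beside the linker share, the H4 sum, the called histone genes, Hist1h4c and Slbp.

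The summed level of the histone genes was highest in HFD. Of the linker, H2A, H2B, H3 and H4 sums, those of linker and H4 genes differed most between HFD and ND. CPM is the count scaled to the size of its library, so that levels of a gene can be set side by side. The sum over the 67 genes was 50.4 to 62.2 CPM in HFD libraries (median 57.5), 44.5 to 53.3 in SW libraries (median 49.95) and 35.9 to 45.8 in ND libraries (median 42.6). Every HFD library lay above every ND library, while SW libraries overlapped both diets. Linker genes summed to 20.03 ± 4.05 CPM in HFD, 15.0 ± 3.19 in SW and 10.4 ± 2.51 in ND (SD, n = 6 each). The ND library with the most linker RNA had 14.6 CPM, and the HFD library with the least had 15.8 CPM.

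Core genes summed to 37.3 ± 2.86 CPM in HFD, 34.2 ± 2.85 in SW and 31.2 ± 3.28 in ND, with overlap between the diets. All linker genes lie in the Hist1 cluster. The 48 core genes of Hist1 summed to 13.77 ± 4.105 CPM in HFD, 8.895 ± 1.173 in SW and 8.065 ± 1.271 in ND, with overlap. The Hist2 genes averaged 15.91 CPM in HFD, 18.23 in SW and 15.68 in ND. The Hist3 genes averaged 7.02 CPM in HFD, 6.852 in SW and 7.22 in ND. Whether the difference goes with histone class or with cluster was not tested. Without HFD 4, the HFD sum was 56.3 CPM over all 67 genes and 37.35 CPM over the core genes. Among the core genes, H4 genes summed to 9.25 ± 2.99 CPM in HFD, 5.47 ± 0.528 in SW and 5.18 ± 0.752 in ND. The H4 sums overlapped, at 4.65 to 12.7 CPM in HFD and 4.26 to 6.13 CPM in ND, and HFD 5 lay below the ND mean. Without HFD 4 the HFD mean was 8.65 CPM. Within replicates 1 and 2 the H4 sum averaged 11.2 CPM in HFD, 5.78 in SW and 5.31 in ND, and within replicates 3 to 6 it averaged 8.29 in HFD, 5.31 in SW and 5.12 in ND. H2B genes, the core class with the most counts, summed to 20.9 ± 2.70 CPM in HFD, 23.2 ± 2.54 in SW and 20.6 ± 2.35 in ND, ranges that overlap. H2A genes summed to 4.93 ± 0.921 CPM in HFD, 4.05 ± 0.908 in SW and 3.99 ± 1.09 in ND. H3 genes summed to 2.18 ± 0.644 CPM in HFD, 1.48 ± 0.283 in SW and 1.45 ± 0.394 in ND. These sums are a description with no test.

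The linker share of the histone sum was 34.8 ± 5.29% in HFD, 30.4 ± 5.36% in SW and 24.9 ± 5.12% in ND (SD, n = 6 each). It reached 28.7 to 40.6% over HFD libraries, 22.7 to 36.8% over SW libraries and 19.0 to 31.8% over ND libraries, so the diets overlapped. Without HFD 4, the HFD share was 33.6% and the HFD linker sum 19.0 CPM. Within replicates 1 and 2 the share averaged 32.8% in HFD, 28.6% in SW and 23.4% in ND. Within replicates 3 to 6 it averaged 35.8% in HFD, 31.3% in SW and 25.7% in ND. The share depends on single genes and on the unit: without Hist1h1c, linker genes held 7.73% in HFD, 4.50% in SW and 2.26% in ND. Without Hist2h2be they held 46.05% in HFD, 45.75% in SW and 37.6% in ND. From summed FPKM they held 26.6% in HFD, 25.7% in SW and 20.6% in ND. In these last 2 forms SW lay close to HFD.

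**Figure D2:**
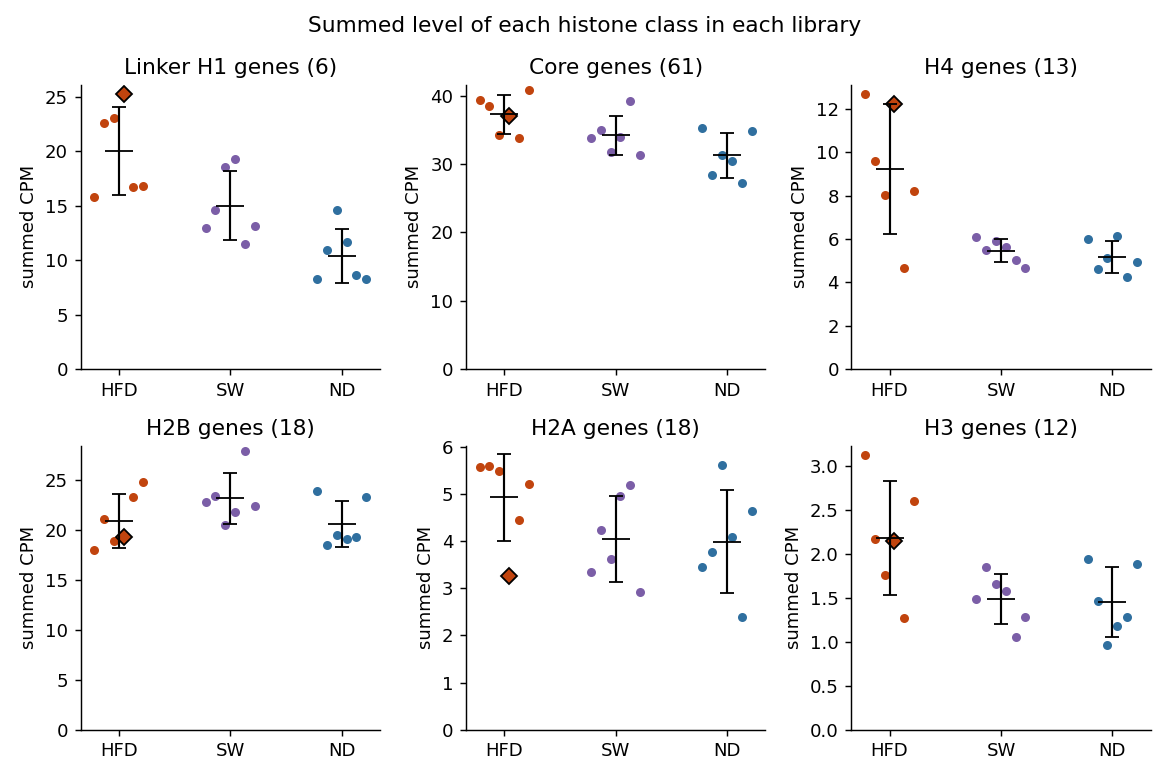
Summed level in CPM (y axis) of the linker, core, H4, H2B, H2A and H3 genes in each library, by diet; each point is a library, the diamond is HFD 4, and bars give the mean ± SD of 6 libraries. Linker sums of HFD libraries (15.8 to 25.2 CPM) lie above all ND libraries (8.27 to 14.6 CPM), while the H2B sums of the diets overlap.

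In HFD against ND, 3 of the 12 tested histone genes rose and 0 fell at a Benjamini-Hochberg adjusted p under 0.05, and they were the linker genes Hist1h1c and Hist1h1e and the core gene Hist1h4n. Over all 13690 genes tested, 0.665% rose and 0.957% fell, or 1.62% in either direction. The median log2 fold change was 0.53 over the 12 histone genes and 0.01 over all genes tested. Genes high in 1 diet can pass the filter through that diet alone, so these counts are a description: Hist1h4n had 10 or more counts in 6 HFD, 0 SW and 1 ND libraries, and Hist1h1e in 6 HFD, 4 SW and 1 ND libraries.

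Hist1h1c (ENSMUSG00000036181; chromosome 13, 23738808 to 23740367, plus strand, GRCm38) encodes the linker subtype H1.2, a main H1 of somatic cells, and was the most abundant linker gene. It had 13.5, 17.7, 19.5, 22.5, 13.9 and 14.3 CPM in HFD libraries 1 to 6. It had 11.6, 12.4, 17.1, 16.7, 11.1 and 11.5 CPM in SW libraries 1 to 6, and 7.70, 9.98, 13.7, 10.9, 8.10 and 7.56 CPM in ND libraries 1 to 6. All HFD libraries lay above the ND mean and 5 of 6 above the highest ND library, while SW libraries spanned the range between. The log2 fold change of HFD over ND was 0.81 ± 0.16 (SE; adjusted p = 0.00997). It was 0.71 ± 0.16 without HFD 4 (adjusted p = 0.0269), 0.82 ± 0.20 within replicates 1 and 2 (adjusted p = 0.263) and 0.80 ± 0.22 within replicates 3 to 6 (adjusted p = 0.0893).

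Hist1h1e (ENSMUSG00000051627; chromosome 13, 23620629 to 23622558, minus strand, GRCm38) encodes H1.4, the other abundant somatic linker subtype. It had 1.70, 2.64, 2.05, 2.48, 1.72 and 1.67 CPM in HFD libraries 1 to 6. The SW libraries had 0.468, 1.26, 0.907, 2.32, 0.351 and 1.02 CPM, and the ND libraries 0.376, 0.698, 0.561, 0.629, 0.341 and 0.366 CPM. Each HFD library was above every ND library, as for 0.672% of all genes tested, and SW libraries ran from the ND level up to the HFD level. The log2 fold change of HFD over ND was 2.03 ± 0.36 (SE; adjusted p = 0.00501). Without HFD 4 it was 1.96 ± 0.37 (adjusted p = 0.00965), and it was 2.01 ± 0.60 within replicates 1 and 2 (adjusted p = 0.424) and 2.04 ± 0.46 within replicates 3 to 6 (adjusted p = 0.0214). The exons of Hist1h1e overlap those of Hist1h2be and of Gm11398 on the same strand, so its counts are uncertain to that extent.

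The other linker genes had few counts. Hist1h1d, which encodes H1.3, had 7, 16, 17, 4, 14 and 9 counts in HFD libraries 1 to 6, against 7, 12, 3, 3, 0 and 6 counts in SW and 3, 2, 2, 1, 2 and 1 counts in ND. Every HFD library had more counts than every ND library, and the lowest HFD level was 0.261 CPM against a highest ND level of 0.188 CPM. Of the 13690 genes past the filter, 0.672% lay so, a share that does not cover genes as low as Hist1h1d. Hist1h1d did not pass the filter, and with no filter its log2 fold change of HFD over ND was 2.48 ± 0.61 (edgeR adjusted p = 0.0161). That fit called 100 of 28676 genes higher and 139 lower, and 4 of 54 histone genes higher and 0 lower. Hist1h1a, which encodes H1.1, had 36 counts in all and Hist1h1b, which encodes H1.5, had 10. Hist1h1t was at 0.

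Hist1h4n, an H4 gene, was the core gene called in HFD against ND. Hist1h4n (ENSMUSG00000069305; chromosome 13, 21831767 to 21832196, minus strand, GRCm38) had 2.58, 1.01, 1.24, 1.57, 0.637 and 1.67 CPM in HFD libraries 1 to 6. It had 0.624, 0.330, 0.151, 0.0828, 0.491 and 0.339 CPM in SW libraries and 0.188, 0.768, 0.321, 0.157, 0.512 and 0.305 CPM in ND libraries. Of the HFD libraries, 5 of 6 lay above the highest ND library, and all 6 lay above the highest SW library. Its log2 fold change of HFD over ND was 1.94 ± 0.42 (SE; adjusted p = 0.0179), and 1.92 ± 0.43 without HFD 4 (adjusted p = 0.0284). It was 1.94 ± 0.70 within replicates 1 and 2 (adjusted p = 0.471) and 1.96 ± 0.52 within replicates 3 to 6 (adjusted p = 0.052).

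The counts of Hist1h4n cannot be tied firmly to that gene. In all, 14.4% of the 50-base stretches of its 430-base transcript occur in no other gene. It shares 317 of its 381 such stretches with Hist1h4m and 130 with Hist1h4i. Hist1h4m, the closest copy, had 3 counts over the 18 libraries.

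Hist1h4c and Hist1h4d also encode H4 and were not called in HFD against ND by the edgeR fit of diet alone. Hist1h4c had 0.764 to 1.47 CPM in HFD libraries (median 1.28), 0.561 to 0.983 in SW libraries (median 0.745) and 0.171 to 1.10 in ND libraries (median 0.380). Its HFD libraries lay above the highest ND library in 5 of 6, and its log2 fold change of HFD over ND was 1.252 ± 0.36 (adjusted p = 0.0704, and 0.0317 by DESeq2). It was 1.275 ± 0.37 without HFD 4 (adjusted p = 0.0833), 1.42 ± 0.59 within replicates 1 and 2 and 1.15 ± 0.49 within replicates 3 to 6. With these replicate sets as a factor, edgeR called Hist1h4c in HFD against ND (1.253 ± 0.37, adjusted p = 0.0484). Hist1h4d had 0.637 to 2.67 CPM in HFD (median 1.02), 0.151 to 0.936 in SW (median 0.516) and 0.140 to 1.26 in ND (median 0.4997), so the groups overlapped. Its log2 fold change of HFD over ND was 1.27 ± 0.45 (adjusted p = 0.161), and 0.95 ± 0.45 without HFD 4 (adjusted p = 0.325), the library with its highest level.

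Hist1h4i and Hist2h4 are the other H4 genes that passed the filter, and neither was called. Hist1h4i had 1.59 to 4.96 CPM in HFD (median 3.04), 1.49 to 2.90 in SW (median 2.15) and 1.95 to 3.07 in ND (median 2.43), at a log2 fold change of HFD over ND of 0.32 ± 0.24 (adjusted p = 0.557). Without HFD 4 that value was 0.14 ± 0.23. Hist2h4 had 0.382 to 1.47 CPM in HFD (median 0.912), 0.605 to 1.12 in SW (median 0.769) and 0.240 to 1.12 in ND (median 0.589), with overlap throughout. Per length, in FPKM, Hist1h4i averaged 4.44 in HFD, 3.07 in SW and 3.53 in ND, while Hist1h4n averaged 3.50 in HFD, 0.808 in SW and 0.899 in ND.

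**Figure D3:**
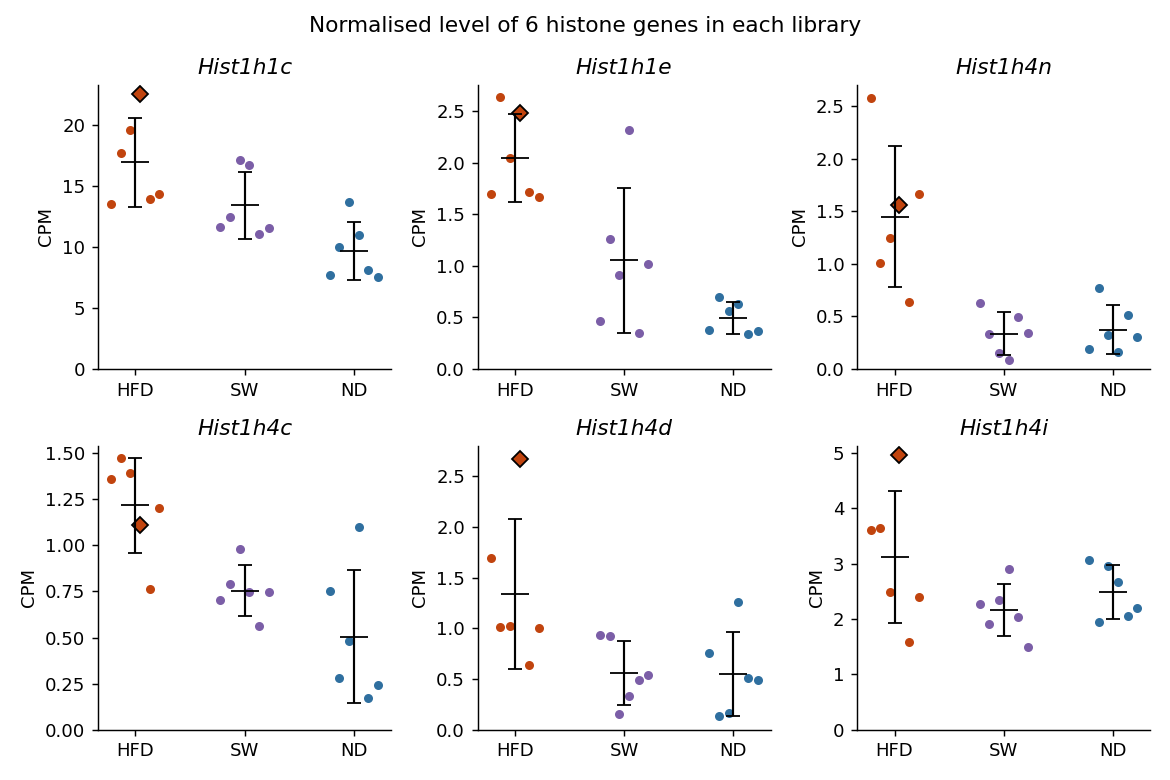
Normalised level in CPM (y axis) of the linker genes Hist1h1c and Hist1h1e and the H4 genes Hist1h4n, Hist1h4c, Hist1h4d and Hist1h4i in each library, by diet; each point is a library, the diamond is HFD 4, and bars give the mean ± SD of 6 libraries. For Hist1h1e every HFD library (1.67 CPM or more) lies above every ND library (0.698 CPM or less), and for Hist1h4n every SW library (0.624 CPM or less) lies below every HFD library.

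The H2B and H2A genes that passed the filter were not called in any comparison. Hist2h2be, an H2B gene with a long annotated transcript and the most counts of all 67, had 8.02 to 17.6 CPM in HFD (median 13.4), 13.3 to 22.6 in SW (median 15.95) and 11.5 to 17.5 in ND (median 13.9). Hist3h2ba had 2.71 to 5.87 CPM in HFD (median 3.20), 2.67 to 4.99 in SW (median 3.57) and 2.67 to 5.13 in ND (median 3.73). For both genes the diets overlapped over most of their range. Hist1h2bc had 0.512 to 1.53 CPM in HFD (median 0.994), 1.13 to 1.42 in SW (median 1.251) and 0.488 to 1.75 in ND (median 1.16).

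Hist1h2be, another H2B gene, spread more in HFD and SW than in ND. It had 0.468 to 2.41 CPM in HFD (median 0.953), 0.330 to 2.73 in SW (median 0.754) and 0.682 to 0.837 in ND (median 0.754). The H2A gene Hist3h2a had 2.28 to 4.04 CPM in HFD (median 3.65), 2.30 to 4.35 in SW (median 2.80) and 1.79 to 4.81 in ND (median 3.34). Its exons overlap those of Trim17 on the same strand and Gm44313 on the opposite strand, and whether strand was kept is not stated, so its counts are uncertain. The log2 fold changes of HFD over ND of these 5 genes lay between -0.21 (Hist1h2bc) and 0.66 (Hist1h2be), at unadjusted p-values of 0.134 or more.

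The 42 detected genes that did not pass the filter held 1294 counts. The 5 with the most were Hist2h3c2 (H3, 128 counts), Hist2h2ac (H2A, 115 counts), Hist1h1d (109 counts), Hist1h3a (H3, 106 counts) and Hist4h4 (H4, 92 counts). Hist2h2ac had 0 to 33 counts in HFD libraries (median 9.5), 0 to 12 in SW libraries (median 4) and 1 to 9 in ND libraries (median 3). Hist2h3c2 had 1 to 14 counts in HFD (median 6.5), 3 to 13 in SW (median 6) and 1 to 15 in ND (median 7.5), with no separation. Together the genes that did not pass summed to 7.36 ± 1.88 CPM in HFD, 4.34 ± 1.06 in SW and 3.53 ± 0.533 in ND (SD, n = 6 each). Their lowest HFD library, HFD 5 at 4.20 CPM, lay within the ND range of 2.67 to 4.33 CPM.

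Over the 54 detected genes, with no filter, the mean level in HFD was above that in ND in 40 and below it in 10. The linker genes gave 5 of 5 above, and the H4 genes 11 of 12. Over all 28676 genes with a count, 49.3% had a higher mean in HFD than in ND. The mean level in SW was above that in ND in 35 of 54, against 50.04% of all genes with a count. It was above that in HFD in 16 of 54, against 48.3% of all genes with a count. Members of 1 cluster can share reads, so these genes are not independent. The 42 detected genes that did not pass the filter held 1294 of the 12526 counts, so many of these means rest on few reads.

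In SW against ND, 0 of the 12 tested histone genes were called by edgeR, against 0.0146% of all genes tested (0.0073% higher and 0.0073% lower), and DESeq2 called 0. None of the 12 had SW libraries that all lay above the ND libraries, as 0.299% of all genes tested did. At an unadjusted p under 0.05 there were 2 of 12, both linker genes, against 6.81% of all genes tested. Hist1h1c had a log2 fold change of SW over ND of 0.48 ± 0.16 (SE; adjusted p = 0.428), with 6 of 6 SW libraries above the ND mean. Hist1h1e had 1.07 ± 0.38 (adjusted p = 0.476), with 4 of 6 SW libraries above the highest ND library. Hist1h4n had -0.13 ± 0.50, Hist1h4d 0.04 ± 0.49 and Hist1h4c 0.57 ± 0.38, none past the threshold.

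In SW against HFD, 1 of 12 histone genes fell and 0 rose, against 0.0657% of all genes tested that fell, 0.0584% that rose and 0.124% called in either direction. It was Hist1h4n, at a log2 fold change of SW over HFD of -2.07 ± 0.43 (SE; adjusted p = 0.0439). Its diets did not overlap, as for 0.409% of all genes tested in that direction. This call held in 4 of 18 fits that left out a library (HFD 5, SW 1, ND 2 or ND 4), and without HFD 4 the value was -2.04 ± 0.44 (adjusted p = 0.0682). Within replicates 1 and 2 it was -1.94 ± 0.71 (adjusted p = 0.436), and within replicates 3 to 6 it was -2.18 ± 0.53 (adjusted p = 0.083). The linker genes lay lower in SW than in HFD without being called, Hist1h1e at -0.96 ± 0.33 (adjusted p = 0.262) and Hist1h1c at -0.34 ± 0.16 (adjusted p = 0.427). SW against HFD and HFD against ND share the HFD libraries, and the ND libraries serve both comparisons with ND.

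**Figure D4:**
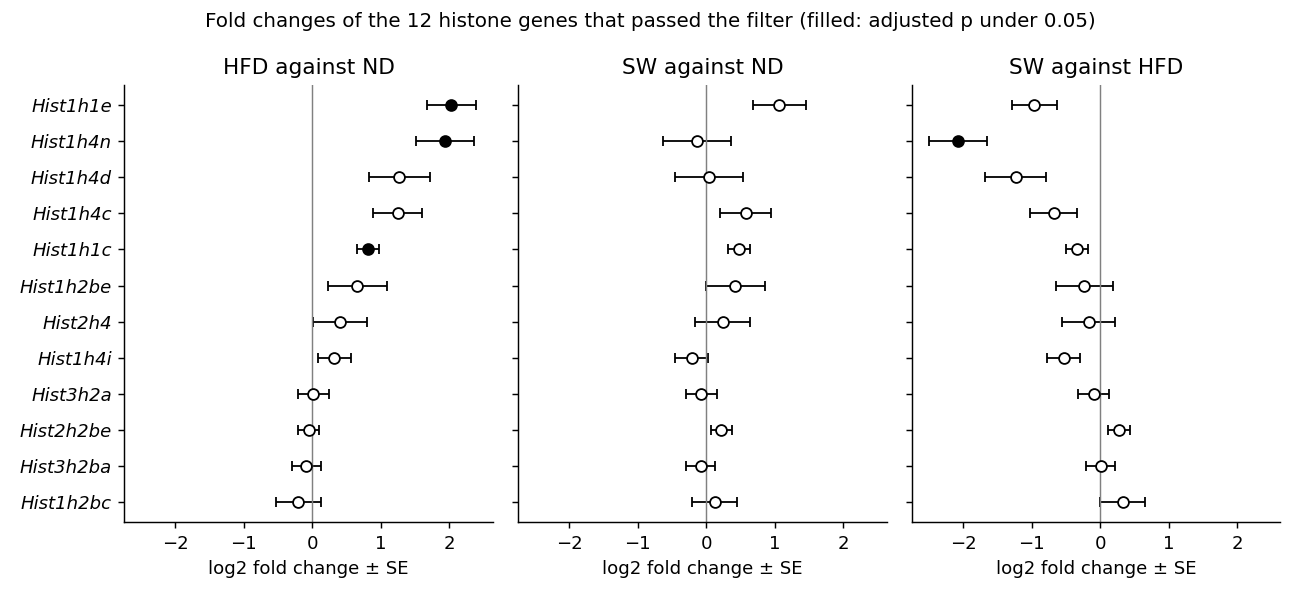
Log2 fold change with its SE (x axis) of the 12 histone genes that passed the filter (rows) in HFD against ND, SW against ND and SW against HFD; filled points have an adjusted p under 0.05. Filled points are Hist1h1e (2.03), Hist1h4n (1.94) and Hist1h1c (0.81) in HFD against ND and Hist1h4n (-2.07) in SW against HFD.

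Slbp was the gene called in HFD against ND among those that make, process or degrade histone messenger RNA. Of 22 such genes tested, 1 fell and 0 rose in HFD against ND, while 0.957% fell and 0.665% rose over all genes tested. The 22 genes had a median log2 fold change of -0.02 in that comparison. In SW against ND and in SW against HFD, 0 of them were called. Slbp had 52.5, 52.3, 52.8, 45.5, 53.4 and 47.5 CPM in HFD libraries 1 to 6, against 49.7, 48.3, 49.3, 56.5, 52.4 and 45.6 CPM in SW and 56.5, 59.6, 59.6, 61.2, 61.6 and 60.1 CPM in ND. All HFD libraries lay below all ND libraries, as for 1.0% of all genes tested.

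The log2 fold change of Slbp was -0.24 ± 0.06 in HFD over ND (SE; adjusted p = 0.034) and -0.25 ± 0.06 in SW over ND (adjusted p = 0.123). The HFD call held in 11 of 18 fits that left out a library. It was lost without HFD 4 (-0.21 ± 0.06, adjusted p = 0.0707), HFD 6, or any of ND 2 to ND 6, at adjusted p-values of 0.055 to 0.0767. Within replicates 1 and 2 it was -0.14 ± 0.09 (adjusted p = 0.707), and within replicates 3 to 6 it was -0.29 ± 0.07 (adjusted p = 0.0357). Lsm11, a part of the U7 snRNP that cuts histone messenger RNA, had -0.26 ± 0.08 in HFD over ND (adjusted p = 0.0882). Npat, which activates histone gene transcription in S phase and is named for that role after its value was seen, had -0.03 ± 0.09 (adjusted p = 0.901).

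The listed replication-independent histone genes, whose messenger RNAs are mostly polyadenylated and whose use is mostly not tied to S phase, had higher summed levels. Selection on poly-T beads favours tailed RNA, so this does not compare total RNA. Their 11 genes summed to 1679 ± 98.5 CPM in HFD, 1563 ± 112 in SW and 1576 ± 76.5 in ND (SD, n = 6 each). None of the 9 tested was called in any of the 3 comparisons by edgeR, with 1 at an unadjusted p under 0.05 in HFD against ND, 0 in SW against ND and 2 in SW against HFD. H3f3b, which encodes H3.3, had a log2 fold change of HFD over ND of 0.22 ± 0.07 (adjusted p = 0.129). H1f0, a replication-independent linker gene likewise named for its role, had 3.88 to 6.86 CPM in HFD libraries, 3.59 to 5.28 in SW libraries and 3.05 to 8.33 in ND libraries, at a log2 fold change of HFD over ND of 0.05 ± 0.21 (adjusted p = 0.940).

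Of 18 histone chaperone genes and 33 genes of S phase and proliferation, 0 were called in any of the 3 comparisons by edgeR. For the S phase genes the median log2 fold change of HFD over ND was 0.15, with 30 of 33 above 0, beside a median of 0.01 and 52.4% above 0 over all genes tested. At an unadjusted p under 0.05 there were 4 of 33, against 14.9% of all genes tested. In SW over HFD the median was -0.20, with 1 of 33 above 0, beside a median of -0.0040 and 48.7% above 0 over all genes tested. At an unadjusted p under 0.05 there were 11 of 33, against 11.1% of all genes tested. Their summed level was 982 to 1162 CPM in HFD libraries, 901 to 995 in SW libraries and 956 to 1008 in ND libraries. The cyclin gene Ccnb1 had a log2 fold change of HFD over ND of 1.08 ± 0.34 (adjusted p = 0.106) and Ccna2 of 0.69 ± 0.23 (adjusted p = 0.144). Whether the share of dividing cells has a part in the histone differences was not tested.

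Defining genes of CD8 T cells were at like levels, with a sum over 8 genes of 5260 to 5781 CPM in HFD, 5282 to 5714 in SW and 5282 to 5757 in ND. Summed erythroid, B cell, plasma cell and myeloid markers averaged higher in HFD than in ND, with ranges that overlapped. The 12 erythroid genes, each with a count in at least 1 library, summed to 17.1 to 349 CPM in HFD libraries, with the highest value in HFD 4. They summed to 36.7 to 95.9 CPM in SW libraries and 19.3 to 46.8 CPM in ND libraries. The HFD mean was 127.5 CPM, and 83.2 CPM without HFD 4. Of the 7 tested, 0 were called in any comparison by edgeR, with 6 at an unadjusted p under 0.05 in HFD against ND, where their median log2 fold change was 1.98. In HFD 5, which had the lowest erythroid sum of all, Hist1h1e was 1.72 CPM and Hist1h1c 13.9 CPM, both above the highest ND library. Hist1h4n in HFD 5 was 0.637 CPM, below the highest ND library. HFD 5 is 1 library named for its low erythroid sum, and the part of erythroid cells in the histone differences was not tested.

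The 10 B cell genes summed to 538 to 692 CPM in HFD, 515 to 631 in SW and 489 to 548 in ND, and Ighm was called in HFD against ND (log2 fold change 0.24 ± 0.06, adjusted p = 0.0361). That call held in 9 of 18 fits that left out a library. It was lost without HFD 2, HFD 4 (0.19 ± 0.06, adjusted p = 0.0838), HFD 5, HFD 6 or any of ND 1 to ND 5. The 5 plasma cell genes summed to 6.29 to 31.8 CPM in HFD, 4.49 to 12.6 in SW and 1.71 to 6.92 in ND. The 12 myeloid genes summed to 27.9 to 35.99 CPM in HFD, 17.7 to 30.5 in SW and 19.0 to 28.3 in ND. No plasma cell or myeloid gene tested was called in any comparison by edgeR. The CD4 T cell genes summed to 14.71 to 21.46 CPM in HFD, 13.83 to 19.34 in SW and 14.41 to 19.47 in ND. The natural killer cell genes summed to 133.0 to 163.4 CPM in HFD, 115.0 to 164.4 in SW and 120.4 to 150.6 in ND. Of 5 CD4 T cell and 4 natural killer cell genes tested, 0 were called in HFD against ND by edgeR, with 1 of each at an unadjusted p under 0.05. In these lists every gene had a count in at least 1 of the 18 libraries. The part of these cells in the histone differences was not tested.

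Some other RNAs that lack a poly-A tail were also counted. The 6 listed RNA polymerase III and related RNAs summed to 0 CPM in all HFD libraries, 0.0828 CPM or less in SW libraries and 0.160 CPM or less in ND libraries, with 4 of the 6 at 0 in every diet. Annotated snoRNA genes summed to 76.7 ± 13.7 CPM in HFD, 74.3 ± 5.06 in SW and 69.0 ± 6.96 in ND (SD, n = 6 each), with overlapping ranges. Annotated snRNA genes summed to 12.7 ± 2.82 CPM in HFD, 13.1 ± 1.82 in SW and 12.0 ± 1.15 in ND. Mitochondrial tRNA genes summed to 104.3 ± 32.6 CPM in HFD, 96.9 ± 24.6 in SW and 87.6 ± 16.3 in ND. How reads of repeated sequence were counted is unknown, so these sums are no measure of bead carry-over. Whether carry-over of untailed RNA has a part in the histone differences was not tested.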

How the data were processed

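Poly-A RNA-seq libraries were made with poly-T beads and random hexamers, per the labels' protocols. The submitters' processing notes name fastp, GRCm38 and mm10. The aligner, counter and annotation were not given in the sources at hand. Per library, the authors deposited raw counts per gene and FPKM values. All 18 libraries went into a single edgeR 4.0.16 quasi-likelihood fit of the counts (R 4.3.3; TMM scaling, filterByExpr by diet, robust), checked on simulated data. Adjusted p-values are Benjamini-Hochberg over 13690 genes, called under 0.05. SE comes from the F statistic, and CPM uses TMM library sizes. Of the gene IDs, 52073 were found in GENCODE M21, which may not be the annotation behind the counts. Replicates of a diet differed by more than counting noise in all 45 pairs. Alternatives included DESeq2 1.42.0 and limma 3.58.1 on log2 FPKM. Every histone gene past the filter is named, with the 5 others of most counts, and from each other list any called gene and at most 3 by smallest p. Gene members and lists were chosen with earlier results of these data known. Samples of other cell types were not analysed here.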

Additional observations from a re-analysis of the deposited data

Results flagged for a closer look

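The level of Hist1h2be in SW 1 was 2.73 CPM, and the next highest SW library had 1.12 CPM. That gap is 0.670 of the range of the 6 SW libraries, above the 95% critical value of Dixon's rule for 6 values. Over the 12 genes that passed the filter and 4 sums or shares, 48 groups of 6 libraries were looked at and 1 was flagged, and chance alone flags about 1 in 20. The exons of Hist1h2be overlap those of Hist1h1e, which had 0.468 CPM in SW 1.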

How the results depend on the processing

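The count of histone genes called in HFD against ND was 3 to 4 in the 18 fits that left out a library, 1 within replicates 3 to 6 and 0 within replicates 1 and 2, where fewer samples were fitted. Over all genes that comparison called 222 genes, against 479 with DESeq2, 598 with the replicate block, 535 with the replicate sets as a factor, 3 within replicates 1 and 2 and 88 to 291 without a library. The count of histone genes in SW against HFD was 0 to 1 without a library, and 0 with at least 1 CPM in 6 libraries, with limma on log2 of FPKM plus 0.1 or plus 1, within either set of replicates and with only the diets compared. Over all genes it was 17, against 112 with DESeq2. SW against ND called 2 genes, and 61 with DESeq2. The cause of these changes was not tested. With the replicate number as a block, SW against ND called 1 histone gene (Hist1h1c, 0.48 ± 0.10, adjusted p = 0.0186) and HFD against ND 4. Same-numbered libraries correlated at -0.03 to 0.22, with 7 of 18 pairs over 0.1 and 7 of 18 best with their own number, so the numbers were not taken to pair samples. Hist1h4c in HFD against ND was also called by both limma fits, with the block, with the replicate sets as a factor and without ND 4. The linker share without Hist1h1c was 7.73% in HFD, 4.50% in SW and 2.26% in ND. Without Hist2h2be it was 46.1% in HFD, 45.8% in SW and 37.6% in ND, and from summed FPKM 26.6% in HFD, 25.7% in SW and 20.6% in ND. Leaving out a library gave 33.6 to 36.0% in HFD, 29.1 to 31.9% in SW and 23.5 to 26.1% in ND. In SW against ND, Hist1h4d was -0.64 within replicates 3 to 6 and -0.16 to 0.43 without a library, and Hist1h4n was 0.0024 within replicates 1 and 2 and -0.37 to 0.21 without a library. Slbp and Ighm were put through the alternatives after their values were seen, and neither was called within replicates 1 and 2. At 0.00494% of the counts, most histone genes are too shallow to test.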
